A study of Homo sapiens with 6 samples.

Results

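The genes described here are 10 members of the hypoxia response: the carbonic anhydrases CA9 and CA12, the oxygen-regulated transcription factor subunits HIF1A and EPAS1, the oxygen sensors EGLN1 and EGLN3, and the hypoxia-induced genes NDRG1, BNIP3, BNIP3L and ANKRD37. They were chosen from a list of symbols drawn up with results of this same glucose comparison known, because CA9 stood high in it. Each was read from the locus of the deposited table that has an annotated transcript and carries the symbol, which gave 10 loci of 60835 in all, 56911 of them with an annotated transcript. No member had a second annotated locus. The values that chose them are the ones compared below, so the members' changes are a description. Whether a member passed the threshold applied to all loci is stated as part of that description, and nothing is concluded from it.

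The cells were ARPE-19, an established line of human retinal pigment epithelium labelled wild type. Cultures were held for 72 h in normal glucose or high glucose medium, and 3 RNA libraries were sequenced from each condition. The labels give no glucose concentration, and an osmotic control was not analysed here. They do not say that the 3 libraries of a condition came from separate cultures, so the spread between them may be technical.

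Cells sense oxygen through prolyl hydroxylases, the EGLN enzymes, which mark the alpha subunits HIF1A and EPAS1 (also called HIF-2 alpha) for destruction by the VHL ubiquitin ligase. When oxygen is low the marking stops, the alpha subunits pair with ARNT, and the pair binds a short core motif near target genes. This control acts mainly on the protein, which RNA counts do not measure. CA9, CA12, EGLN3, NDRG1, BNIP3, BNIP3L and ANKRD37 are widely used as target genes of this pathway. In the eye, the pigment epithelium is a source of the HIF target VEGFA, the growth factor behind vessel overgrowth in retinal disease.

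The promoters of 4 members are shown: those of CA9 and CA12, the pair of members with the largest increase, and those of BNIP3 and ANKRD37, which held the most matches to the core motif and whose log2 changes had opposite signs. Each run is the 250 bases before the RefSeq start of the gene (GRCh38.p14), 5′ to 3′ on the strand of the gene. Capitals mark every match to ACGTG or GCGTG on either strand, so that a match on the opposite strand reads CACGT or CACGC, and adjoining capitals of CACGTG are ACGTG on both strands, overlapping. Positions are chr9:35673678-35673927 (plus strand) for CA9, chr15:63381847-63382096 (minus) for CA12, chr10:131981924-131982173 (minus) for BNIP3 and chr4:185396591-185396840 (plus) for ANKRD37.
CA9: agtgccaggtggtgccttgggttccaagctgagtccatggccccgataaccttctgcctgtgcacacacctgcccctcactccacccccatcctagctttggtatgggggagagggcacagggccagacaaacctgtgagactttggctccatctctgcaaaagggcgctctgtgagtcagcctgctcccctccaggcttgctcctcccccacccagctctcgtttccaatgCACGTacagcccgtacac
CA12: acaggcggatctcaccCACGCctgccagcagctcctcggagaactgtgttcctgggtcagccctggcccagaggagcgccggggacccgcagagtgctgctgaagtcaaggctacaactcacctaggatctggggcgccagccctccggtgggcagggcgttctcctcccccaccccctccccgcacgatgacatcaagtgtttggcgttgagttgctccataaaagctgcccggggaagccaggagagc
BNIP3: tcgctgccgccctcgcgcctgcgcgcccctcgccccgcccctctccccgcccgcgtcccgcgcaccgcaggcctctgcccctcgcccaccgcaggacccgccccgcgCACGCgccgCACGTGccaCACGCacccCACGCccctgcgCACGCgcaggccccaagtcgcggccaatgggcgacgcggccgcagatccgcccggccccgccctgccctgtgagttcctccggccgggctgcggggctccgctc
ANKRD37: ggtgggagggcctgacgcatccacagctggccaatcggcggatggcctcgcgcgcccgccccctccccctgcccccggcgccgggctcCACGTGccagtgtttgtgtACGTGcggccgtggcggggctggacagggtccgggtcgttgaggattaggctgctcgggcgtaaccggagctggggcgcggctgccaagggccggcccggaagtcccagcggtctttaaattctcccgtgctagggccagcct

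In CA9 the sole match was an ACGTG on the opposite strand, 18 to 14 bases before the start. CA12 held no ACGTG and a single GCGTG, also on the opposite strand, 234 to 230 bases before its start. BNIP3 held 2 overlapping copies of ACGTG, 134 to 129 bases before the start, with 4 copies of GCGTG around them. ANKRD37 held 3 copies of ACGTG, of which 2 overlapped 162 to 157 bases before the start and the third lay at 143 to 139. Of the other members with a RefSeq window, EGLN1 had ACGTG 13 to 9 bases before its start, HIF1A had GCGTG at 204 to 200, EPAS1 had GCGTG at 117 to 113, and EGLN3 had no match in this window. Windows were read for 8 of the 10 members, the exceptions being NDRG1 and BNIP3L. ACGTG stood in 4 of those 8 windows and in 18.5% of 35116 RefSeq windows of this length, and ACGTG or GCGTG stood in 7 of 8 and in 43.2%. A match is a run of letters and not a measured binding site.

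Depth was 81616741 to 87748820 counts per library, with 30253 to 31698 loci detected by at least 1 count. The first principal component of log2 CPM, the count scaled to library size, took 49.7% of the variance and separated the 2 conditions. The second, with 18% of the variance, set normal glucose library 3 at -107.1, against 6.6 to 44 for the other 5 libraries. For some members the change, and for some lists the count of calls, is therefore also given without it. The plot of log2 changes with each library left out in turn shows this change for every member. Across the table, 4906 of 25025 loci tested were called, which is 19.6%: 2439 higher in high glucose (9.75%) and 2467 lower (9.86%). A locus is called here when its adjusted p is under 0.05 in edgeR's quasi-likelihood test with Benjamini-Hochberg adjustment over all loci tested. Among the 13786 tested loci with a protein-coding transcript the share called was 25.5%.

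All 10 members passed the filter on low counts. CA9, CA12, BNIP3 and BNIP3L were called higher in high glucose, EPAS1 and NDRG1 were called lower, and HIF1A, EGLN1, EGLN3 and ANKRD37 were not called. CA9 was accompanied by 3 members in its direction, while 2 went the other way. Over all loci tested, 9.75% were called higher and 9.86% lower. Of the 3, CA12 kept its call with any single library left out. BNIP3 and BNIP3L each kept theirs in 2 of the 6 fits that left out a library. The libraries of the 2 conditions did not overlap for 9 of the 10, against 42.3% of all loci tested, and HIF1A was the exception. Because this comparison chose the members, nothing is read from these shares. Levels below are CPM after TMM scaling unless FPKM (a level scaled to library size and a length per locus) is named. Changes are log2, high minus normal glucose. In bulk RNA, fewer cells of a kind and less RNA per cell cannot be told apart.

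**Figure D1:**
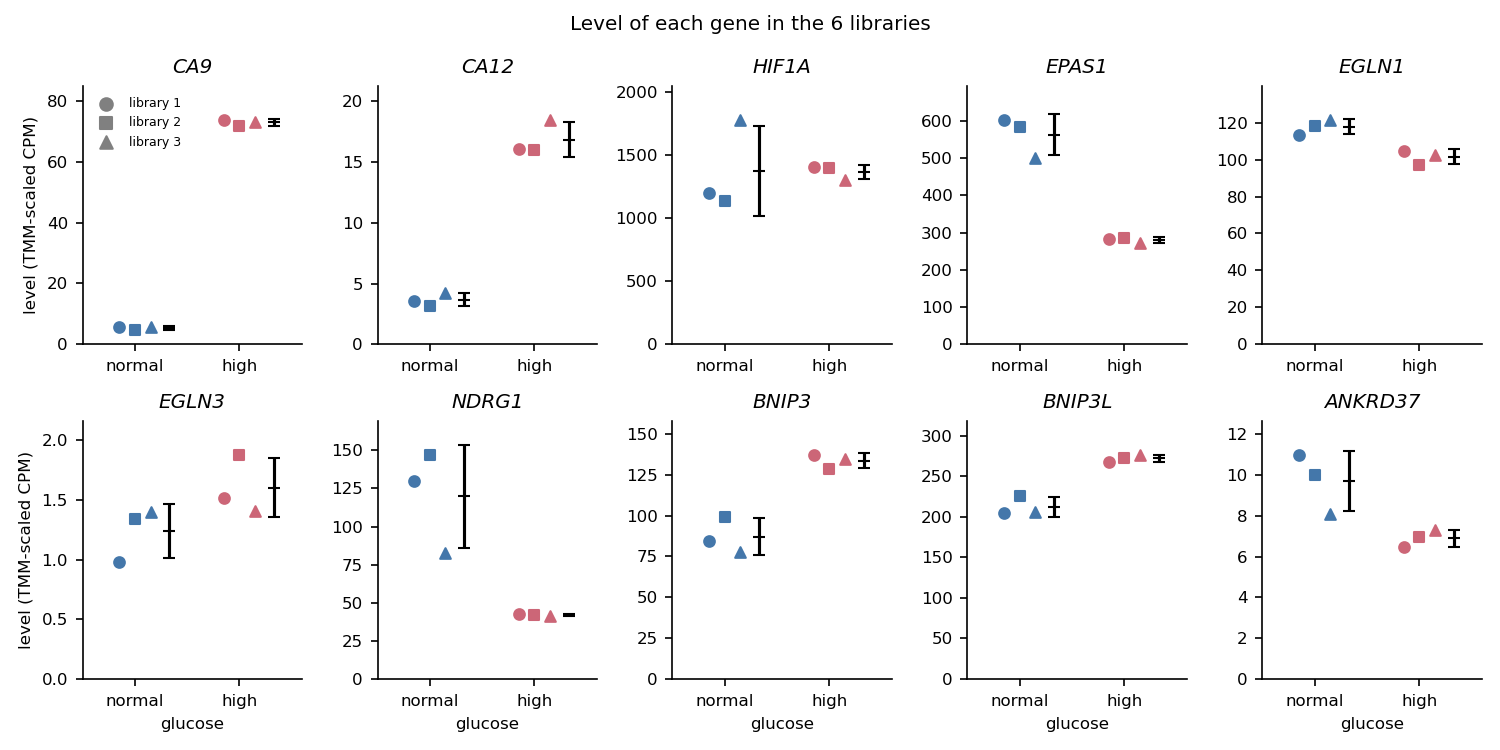
Level of each of the 10 genes in the 6 libraries (y axis, TMM-scaled CPM from 0; x axis, glucose condition). Symbols are libraries 1 to 3 of each condition and the bar is the mean ± SD of 3. CA9 stands at 4.74 to 5.78 in normal and 71.8 to 73.8 in high glucose, while the HIF1A libraries overlap.

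CA9, a membrane enzyme that turns carbon dioxide and water into bicarbonate and a proton outside the cell, had the largest change of the 10. Its level was 5.78, 4.74 and 5.71 CPM in normal glucose libraries 1 to 3 and 73.8, 71.8 and 73.1 CPM in high glucose. The lowest high glucose library lay far above the highest normal one, and each condition was tight. The means were 5.41 ± 0.579 and 72.9 ± 1.02 CPM (SD, n = 3 each), a log2 change of 3.75 (SE 0.132, 95% interval 3.44 to 4.06), or 13.5-fold. This placed CA9 at rank 146 of the 25025 loci tested, counted from the largest increase. Without normal glucose library 3 its log2 change was 3.79.

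CA12, the related membrane carbonic anhydrase, moved in the same direction at lower levels. It stood at 3.57, 3.18 and 4.25 CPM in normal glucose and at 16.1, 16.0 and 18.5 CPM in high glucose. All 3 high glucose libraries were above all normal ones. The means were 3.67 ± 0.538 and 16.9 ± 1.42 CPM (SD, n = 3 each), a log2 change of 2.20 (SE 0.174, 95% interval 1.79 to 2.61), or 4.6-fold. The interval lies below that of CA9, and both members ranked near the top of the table, CA12 at 603 of 25025. On deposited FPKM with 1 added, the log2 change of CA12 was 1.07, a scale that shrinks the change of low genes.

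Of 15 carbonic anhydrases on the list, 8 passed the filter. Beside CA9 and CA12 these were 6 genes, of which 1 was called higher and 2 lower, and their median change was -0.37 against -0.00415 over all loci tested. CA11, a relative that lacks enzyme activity, rose from 25.1 ± 4.54 to 57.4 ± 2.29 CPM (log2 change 1.19, edgeR adjusted p = 0.00463). CA13, a cytosolic enzyme, fell from 32.2 ± 4.03 to 18.7 ± 0.319 CPM (log2 change -0.78, edgeR adjusted p = 0.0101). CA5B, a mitochondrial enzyme whose locus also carries the pseudogene CA5BP1, was called lower by -0.47 (edgeR adjusted p = 0.023). The call of CA11 held with any single library left out, while the 2 lower calls were both lost without any 1 of the high glucose libraries.

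Carbonic anhydrases work beside transporters of acid and bicarbonate. In that list 14 of 15 genes passed the filter, 2 were called higher and 1 lower, with a median of -0.15. SLC4A4, a sodium bicarbonate cotransporter, rose from 56.0 ± 11.6 to 121.2 ± 3.18 CPM (log2 change 1.11, edgeR adjusted p = 0.00627). SLC16A3, the lactate exporter MCT4, was 128, 84.6 and 281.4 CPM in normal glucose and 443.6, 475.4 and 477.6 CPM in high glucose. Its log2 change was 1.5 (edgeR adjusted p = 0.0415). Of the 6 fits that each left out a library, only that without normal glucose library 3, the highest of its group, called it, at 2.13. SLC4A10, a bicarbonate transporter at a locus that also carries TBR1, fell from 6.17 ± 1.40 to 1.75 ± 0.514 CPM (log2 change -1.82, edgeR adjusted p = 0.00864).

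EPAS1, the HIF alpha subunit first found in endothelium, was lower in high glucose. Normal glucose libraries held 602.9, 584.4 and 501.1 CPM and high glucose libraries 281.8, 285.5 and 271.5 CPM. The groups were well apart, and library 3 was the lowest of each. The mean went from 562.8 ± 54.3 to 279.6 ± 7.27 CPM (SD, n = 3 each), a log2 change of -1.01 (SE 0.108, 95% interval -1.26 to -0.76), or 2.01-fold lower. Without normal glucose library 3 the change was -1.09.

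HIF1A, the other alpha subunit, stood at 1197.1, 1132 and 1777.6 CPM in normal glucose and at 1400.6, 1395.1 and 1303.3 CPM in high glucose. Normal glucose library 3 was the highest of the 6 and libraries 1 and 2 were the lowest, so the normal group enclosed the high one. The mean was 1368.9 ± 355.4 against 1366.3 ± 54.7 CPM (SD, n = 3 each), with a 95% interval of the log2 change from -0.43 to 0.42. Leaving out normal glucose library 3 turned the log2 change to 0.23, past the threshold for a call, while each of the other 5 omissions gave between -0.12 and 0.03 and no call. The locus also carries SNAPC1, and its count cannot be divided between the 2 genes.

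Among the partners of these subunits, ARNT2 alone was called. Of 5 HIF subunit genes, HIF3A did not pass the filter and 4 did, with 1 called higher, 1 lower (EPAS1) and a median of 0.20. ARNT2, a partner best known from the nervous system, went from 38.1 ± 2.39 to 50.4 ± 1.77 CPM (log2 change 0.40, edgeR adjusted p = 0.0381). Of the 6 omissions, only that of normal glucose library 3 kept the call. ARNT itself stood at 34.2 to 49.9 CPM in normal and 42.7 to 66.3 CPM in high glucose, overlapping, with a log2 change of 0.44 that was not called.

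EGLN1, the main prolyl hydroxylase of most cells, was 113.5, 118.2 and 121.6 CPM in normal glucose and 104.9, 97.2 and 102.7 CPM in high glucose. All 3 high glucose libraries were below the normal ones, by a small margin. The log2 change was -0.21 (SE 0.0932, 95% interval -0.43 to 0.01), and it was not called under any of the 19 alternatives. EGLN3, a hydroxylase that hypoxia itself induces in many cells, was scarce, at 0.982, 1.34 and 1.40 CPM in normal glucose and 1.52, 1.88 and 1.41 CPM in high glucose. These are counts of 85 to 165 per library. The highest normal and the lowest high library nearly touched, and the log2 change of 0.37 had a 95% interval from -0.24 to 0.99.

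Of the 16 genes of oxygen sensing and HIF turnover, all were tested, 1 was called higher and 4 lower, and the median was -0.07. HIF1AN, the asparagine hydroxylase that blocks coactivator binding to HIF alpha, rose from 134 ± 7.35 to 188.9 ± 11 CPM (log2 change 0.50, edgeR adjusted p = 0.0173). SIAH2, a ubiquitin ligase that degrades EGLN proteins, fell from 41.3 ± 1.84 to 22.6 ± 0.536 CPM (log2 change -0.87, edgeR adjusted p = 0.00417), and its relative SIAH1 was called lower by -0.65. RACK1, which promotes HIF1A degradation, was called lower by -0.48 and the deubiquitinase USP33 by -0.38. SIAH2 alone of these 5 kept its call with any single library left out. The list's calls ran from 0 to 3 higher and from 1 to 4 lower over those omissions, with 3 higher and 4 lower without normal glucose library 3.

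Among 10 HIF coactivators and CITED factors none was called higher and 4 were called lower, with a median of -0.28, in edgeR's test. At an unadjusted p under 0.05 there was 1 higher, the glycolytic enzyme PKM, which also coactivates HIF1A (log2 change 0.79, unadjusted p = 0.0121 in edgeR), and DESeq2 called 1 higher. CITED2, which competes with HIF for the coactivators, was called lower by -0.73 (edgeR adjusted p = 0.0468). With normal glucose library 3 left out its change was -0.94. The acetyltransferases CREBBP and EP300, which HIF recruits to its targets, had changes of -0.71 and -0.37, and the nuclear receptor coactivator NCOA1 had -0.56. All 4 lower calls were lost without high glucose library 1, 2 or 3, and without normal glucose library 1 or 2 only that of CREBBP was made. PKM was called higher when high glucose library 1 was left out, at 0.99 (edgeR adjusted p = 0.0487).

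**Figure D2:**
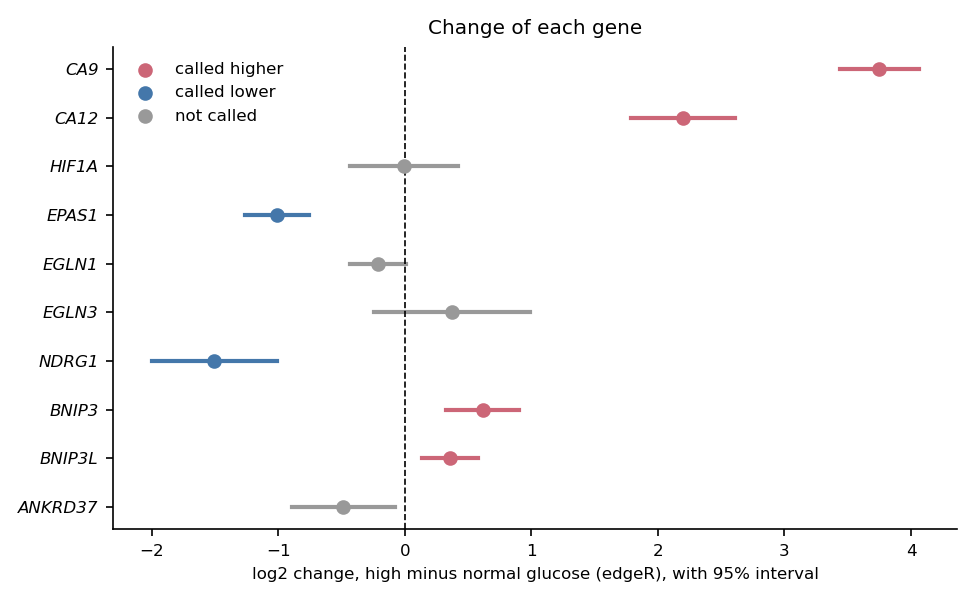
Log2 change of the 10 genes, high minus normal glucose (x axis; edgeR), with the 95% interval as a bar and the call as a colour. CA9 at 3.75 and CA12 at 2.20 stand apart from BNIP3 at 0.62 and BNIP3L at 0.36, EPAS1 and NDRG1 lie below 0, and the interval of HIF1A spans 0.

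NDRG1, a stress-induced gene that hypoxia raises in many cell types, went against CA9. Its level was 129.7, 147.2 and 82.4 CPM in normal glucose and 42.9, 42.1 and 41.4 CPM in high glucose. Normal glucose library 3 was the nearest to the high glucose libraries and did not overlap them. The mean dropped from 119.8 ± 33.5 to 42.1 ± 0.767 CPM (SD, n = 3 each), a log2 change of -1.51 (SE 0.21, 95% interval -2 to -1.01), or 2.84-fold lower. Without normal glucose library 3 the change was -1.72. The other 3 genes of the NDRG family, NDRG2, NDRG3 and NDRG4, were tested and not called, with log2 changes of 0.17, 0.41 and 0.29. In edgeR none of these 3 had an unadjusted p under 0.05, and DESeq2 called none higher. NDRG4 was called higher when normal glucose library 3 was left out, at 0.77 (edgeR adjusted p = 0.0113).

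BNIP3 and BNIP3L are outer membrane receptors that mark mitochondria for removal by autophagy. BNIP3 was 84.4, 99.4 and 77.5 CPM in normal glucose and 137.3, 128.7 and 134.7 CPM in high glucose. BNIP3L was 204.2, 226.1 and 205.6 CPM in normal glucose and 267.6, 271.7 and 276.6 CPM in high glucose. For both genes every high glucose library was above every normal one. BNIP3 went from 87.1 ± 11.2 to 133.6 ± 4.40 CPM (SD, n = 3 each), a log2 change of 0.62 (SE 0.12, 95% interval 0.33 to 0.90), or 1.53-fold. BNIP3L went from 212 ± 12.2 to 272 ± 4.52 CPM (SD, n = 3 each), a log2 change of 0.36 (SE 0.0939, 95% interval 0.14 to 0.58), or 1.28-fold.

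Both calls were lost without normal glucose library 1 and without high glucose library 1, 2 or 3, where the log2 change of BNIP3 was 0.59 to 0.64 and that of BNIP3L 0.33 to 0.37. In edgeR the remaining 4 mitophagy receptors of the list were not called, 2 of them with an unadjusted p under 0.05 (BCL2L13 and PHB2), while DESeq2 called 3 of all 6 higher. Among these 4, BCL2L13 had the largest change and stood at 99.8 to 196.1 CPM in normal and 220.7 to 225.4 CPM in high glucose (log2 change 0.71, edgeR adjusted p = 0.0852). It was called when normal glucose library 3, the highest of its group, was left out, at 1.07 (edgeR adjusted p = 0.000726), and the list then had 3 called higher. PHB2, at -0.38 with all 6 libraries, was called lower when normal glucose library 2 was left out, at -0.49 (edgeR adjusted p = 0.0473). BNIP3 has many processed pseudogenes, and reads could be divided between copies. The pseudogene loci that carry no other gene held at most 30 counts in a library, against 6442 to 12249 for BNIP3. A second locus named BNIP3, with no annotated transcript, held 0 to 47 counts and was not used.

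ANKRD37, a small ankyrin repeat protein and a direct HIF target, was 11, 9.99 and 8.09 CPM in normal glucose and 6.47, 6.95 and 7.28 CPM in high glucose. The high glucose libraries were all lower, but library 3 of the normal group lay close to them. The log2 change was -0.49 (SE 0.172, 95% interval -0.89 to -0.08), and it was not called. Without normal glucose library 3 the change was -0.60, past the threshold for a call. Its locus overlaps UFSP2 on the opposite strand, whose own change of 0.37 was not called.

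**Figure D3:**
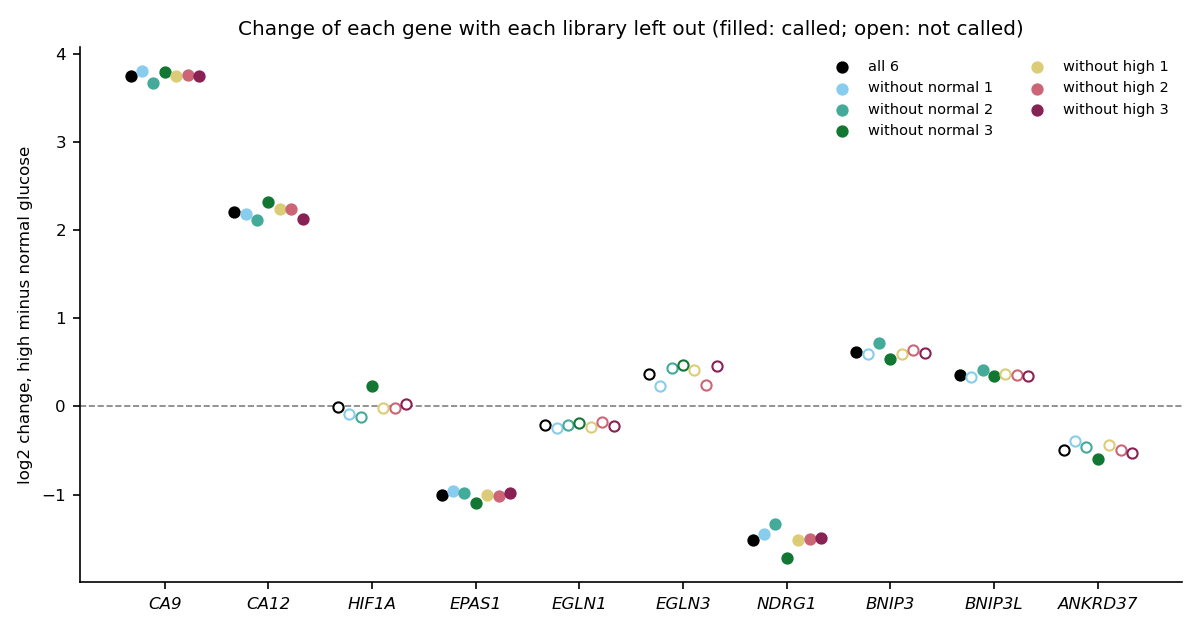
Log2 change of the 10 genes (y axis, high minus normal glucose) with all 6 libraries and with each library left out in turn (colours); filled points were called and open points were not. CA9, CA12, EPAS1 and NDRG1 are filled throughout, BNIP3 and BNIP3L are open in 4 omissions each, and HIF1A and ANKRD37 are filled only without normal glucose library 3.

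The members were also set in order by deposited FPKM. It divides by a length for each locus, which the sources used here do not give. The order is therefore that of the deposited values, and may not be that of transcript levels. In normal glucose HIF1A was the highest at 141.4 ± 36.1 FPKM, followed by EPAS1 at 61.9 ± 6.21, BNIP3L at 40.9 ± 2.47, BNIP3 at 13.1 ± 1.73 and EGLN1 at 9.18 ± 0.29 FPKM (SD, n = 3 each). NDRG1 followed at 7.27 ± 2.07 FPKM, ANKRD37 at 3.43 ± 0.526, CA9 at 2.69 ± 0.28, CA12 at 0.418 ± 0.0592 and EGLN3 at 0.134 ± 0.0247 FPKM. The libraries of EGLN1 and NDRG1 overlapped, as did those of ANKRD37 and CA9, and the other neighbours in this order did not.

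In high glucose the order was different. HIF1A stood at 145.4 ± 6.55 FPKM, BNIP3L at 54.0 ± 0.568 and CA9 at 37.4 ± 0.768 FPKM, above EPAS1 at 31.6 ± 0.931 FPKM (SD, n = 3 each). CA9 thus moved from the eighth place to the third. Below them came BNIP3 at 20.7 ± 0.804 FPKM, EGLN1 at 8.15 ± 0.365, NDRG1 at 2.62 ± 0.0684, ANKRD37 at 2.51 ± 0.137, CA12 at 1.99 ± 0.159 and EGLN3 at 0.178 ± 0.0277 FPKM. Among neighbours, NDRG1 and ANKRD37 alone overlapped. CA12, although its change was the second largest, stayed the second lowest of the 10 on this scale. On CPM, which is not divided by length, CA9 at 72.9 remained below EPAS1 at 279.6 in high glucose.

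**Figure D4:**
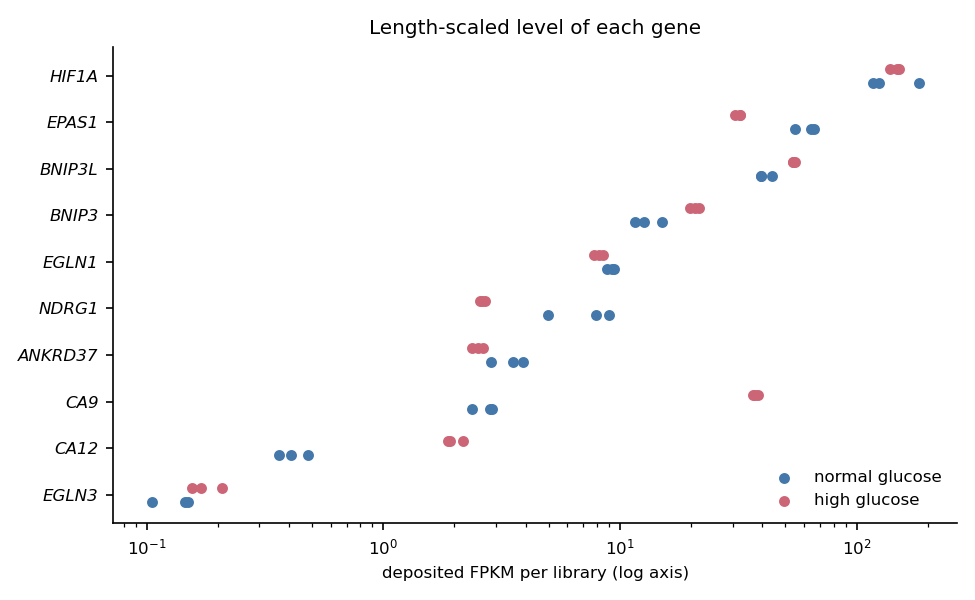
Deposited FPKM of the 10 genes in each library (x axis, log scale), normal glucose in blue and high glucose in red. CA9 moves from 2.69 FPKM, beside ANKRD37, to 37.4 FPKM, above EPAS1, and EGLN3 is the lowest in both conditions.

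Genes that hypoxia induces through HIF were examined as 2 lists beside the members. Of 25 glycolysis and glycogen genes, all tested, 11 were called higher and 2 lower, with a median log2 change of 0.62 against -0.00415 over all loci tested. Beside SLC16A3, the largest increases were PFKL, a phosphofructokinase subunit, at 1.07, PFKFB3, which makes the activator of that enzyme, at 1.05, and glycogen synthase GYS1 at 1.04. PPP1R3C, a glycogen-targeting subunit of protein phosphatase 1, was called lower by -0.79, and PFKFB4, at a locus shared with COL7A1 and UCN2, by -0.47. With a library left out, calls ran from 4 to 16 higher and from 0 to 5 lower, the highest of each being without normal glucose library 3.

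Of 55 other hypoxia-induced genes, 53 were tested, 8 were called higher and 5 lower, and the median was 0.22. ANGPTL4, an inhibitor of lipoprotein lipase, was 1.77, 1.58 and 2.98 CPM in normal glucose and 24.8, 25.6 and 26 CPM in high glucose. Its log2 change of 3.59 (edgeR adjusted p = 0.00148) was the largest increase of this list. FAM162A, a mitochondrial protein, and IGFBP3, an insulin-like growth factor binding protein, were called higher by 1.33 and 1.28.

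Of the 5 genes called lower in the same list, VEGFA was 377.1, 383.9 and 183.7 CPM in normal glucose and 103, 55.6 and 60.9 CPM in high glucose. Every high glucose library was below every normal one, and the log2 change was -2.11 (edgeR adjusted p = 0.01), or -2.38 without normal glucose library 3. GPR146, a G protein-coupled receptor, fell from 5.73 ± 1.24 to 0.728 ± 0.461 CPM (log2 change -2.97, edgeR adjusted p = 0.0113). KLHL24, a ubiquitin ligase adaptor, and LONP1, a mitochondrial protease, were called lower by -1.48 and -1.47. With a library left out, calls in this list ran from 3 to 13 higher and from 2 to 11 lower, again with the highest without normal glucose library 3. The VEGFA call was lost without high glucose library 2 or 3, and that of GPR146 without high glucose library 2.

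**Figure D5:**
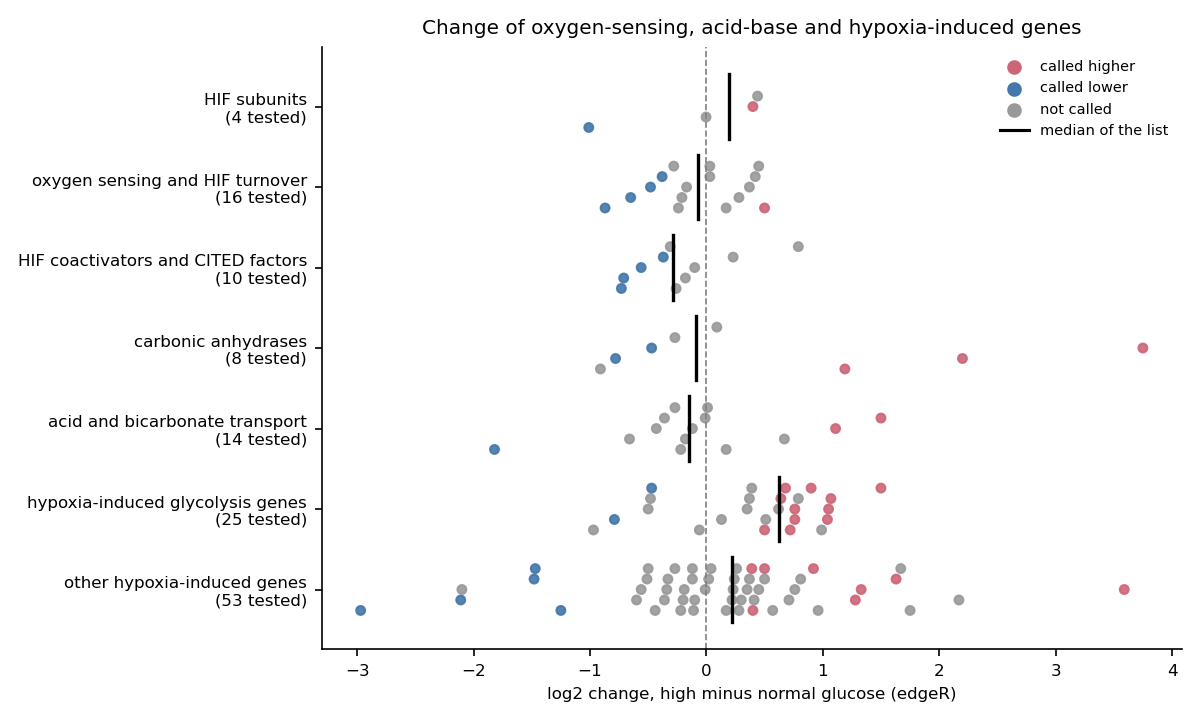
Log2 change of each tested gene (x axis, high minus normal glucose; edgeR) in 7 lists of HIF regulators, acid-base genes and hypoxia-induced genes (y axis), coloured by call, with the list's median as a black bar. The medians lie between -0.28 for the coactivators and 0.62 for the glycolysis genes.

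Over the 9 lists without markers, with members left out and each locus counted once, 129 loci were tested, 23 were called higher and 18 lower, with a median log2 change of 0.09. The share called was 31.8%, beside 19.6% of all loci and 25.5% of protein-coding loci. The lists were drawn up with earlier results of these data known, so nothing is read from this difference. Without normal glucose library 3 the calls were 37 higher and 28 lower, and over the other omissions they ran from 9 to 14 higher and from 4 to 12 lower. Among the genes named above as called from these lists, members aside, calls were kept with any single library left out for 10: SIAH2, CA11, SLC4A4, SLC4A10, PFKL, ANGPTL4, FAM162A, IGFBP3, KLHL24 and LONP1. The others lost the call in at least 1 omission.

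A pair of broader lists came from the annotation columns of the deposited table and was added after the data were seen. Of 91 tested loci annotated to the KEGG HIF-1 signaling pathway, 9 were called higher and 16 lower (27.5%), with a median log2 change of 0.03. Of 242 tested loci annotated to the GO response to hypoxia, 46 were called higher and 38 lower (34.7%), with a median of -0.0018. The share called was 19.6% of all loci tested and 25.5% of those with a protein-coding transcript. Several members are in these lists. Without normal glucose library 3 the KEGG list had 24 higher and 19 lower, and the GO list 64 higher and 62 lower. The other 5 omissions gave 3 to 6 higher and 5 to 11 lower in the KEGG list, and 15 to 31 higher and 14 to 26 lower in the GO list. Calls over all loci moved too, from 4906 to 7615 without normal glucose library 3 and to between 1421 and 2846 in the other 5.

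The loci whose pattern over the 6 libraries was most like that of CA9 were sought among 13379 loci with a mean of at least 1 CPM. Likeness was the root-mean-square difference of log2 CPM after each locus was set to its own normal glucose mean. The nearest was ANGPTL4 at 0.252, followed by PADI2, a peptidylarginine deiminase, at 0.267, ID4, an inhibitor of helix-loop-helix factors, at 0.293, the antisense RNA TMEM108-AS1 at 0.303 and the keratin-associated protein gene KRTAP2-3 at 0.369. ID4 went from 11.8 ± 4.75 to 152.6 ± 8.05 CPM. TMEM108-AS1, at 0.177 ± 0.0664 CPM in normal glucose, stood near the floor of 12 counts there. PADI2 was also low in normal glucose, at 0.353 ± 0.12 CPM. CA12 came at place 92 with a difference of 1.1, and HIF1A at place 6500. The 6 libraries differ mainly by condition, so this measure finds loci with a change of the same size.

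Because strand was not given for the counting, loci beside the members were read too. CA9 (chromosome 9, 35673918 to 35681159, plus strand) overlaps ARHGEF39 on the opposite strand. ARHGEF39 was 2.52, 2.73 and 5.33 CPM in normal glucose and 8.12, 3.85 and 6.80 CPM in high glucose, a level under that of CA9 in every library. The log2 change of ARHGEF39 was 0.83 and was not called. Of the omissions, only that of normal glucose library 3 called it higher, at 1.25 (edgeR adjusted p = 0.0376). TPM2, a tropomyosin gene 832 bases from the CA9 locus on the opposite strand, was 50.0, 50.6 and 102.8 CPM in normal glucose and 184.8, 202.2 and 183.7 CPM in high glucose (log2 change 1.49, edgeR adjusted p = 0.015). The change of TPM2 was 1.92 without normal glucose library 3, and its call was lost without high glucose library 1, 2 or 3. On the other side of CA9, CCDC107 had a log2 change of 0.19 and was not called. Without strand, reads in the overlap of CA9 and ARHGEF39 cannot be told apart. The same holds for EGLN1 and the TSNAX and DISC1 locus opposite it (log2 change 0.21), and for HIF1A and HIF1A-AS3 (0.04), neither of which was called.

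CA12 (chromosome 15, 63321378 to 63381846, minus strand) has APH1B, a gamma-secretase subunit gene, 15473 bases away. APH1B was 14.9, 11.2 and 12.6 CPM in normal glucose and 26.3, 51.9 and 56.2 CPM in high glucose (log2 change 1.79, edgeR adjusted p = 0.00911). USP3, on the other side of CA12, had a change of -0.16 and was not called. EPAS1 (chromosome 2, 46293667 to 46386696, plus strand) has PRKCE, a protein kinase C gene, 105676 bases away, which was called lower by -1.59 (edgeR adjusted p = 0.00845), and on the other side ATP6V1E2, with a change of -0.76 that was not called (edgeR adjusted p = 0.0689). NDRG1 (chromosome 8, 133237175 to 133298071, minus strand) has the thyroglobulin gene TG 102275 bases away, called lower by -1.84 (edgeR adjusted p = 0.00358), and on the other side ST3GAL1, at -0.20 and not called. Beside EGLN3, which was not called, AKAP6 at a distance of 1086542 bases was called higher by 1.47 (edgeR adjusted p = 0.0193), and SPTSSA, at -0.27, was not. The AKAP6 call was lost without normal glucose library 1 and without high glucose library 1, 2 or 3. The 2 loci beside EGLN1, HIF1A and ANKRD37 were not called. The nearest expressed loci of BNIP3 and BNIP3L, PPP2R2D, DPYSL4, SDAD1P1 and PNMA2, had log2 changes between -0.24 and 0.23 and were not called.

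Markers of the labelled cell type and of other cells were read beside the members. Of 15 markers of retinal pigment epithelium 11 were tested, KRT8 and KRT18 were called higher and BEST1 lower, and RPE65, TYR, DCT and TTR were at or near 0. Their summed level was 625 to 1173.7 CPM in normal and 2248 to 2371.6 CPM in high glucose, most of it from KRT8 and KRT18. KRT8 had a log2 change of 1.66, or 2.15 without normal glucose library 3, and lost its call without normal glucose library 1 or high glucose library 1, 2 or 3. The call of BEST1 was lost without high glucose library 1 or 2, and that of KRT18 held with any single library left out. Fibroblast markers summed to 199.9 to 317.7 CPM in normal and 255 to 260.2 CPM in high glucose (1 called higher and 2 lower of 10 tested), with normal glucose library 1 the highest. PDGFRB, called higher, went from 100.9 ± 4.79 to 161.2 ± 1.92 CPM. COL1A1 and TWIST1, called lower, went from 46.1 ± 37.2 to 8.19 ± 0.358 and from 8.41 ± 1.26 to 4.53 ± 0.527 CPM. Of the omissions, only that of normal glucose library 3 kept these lower calls. The PDGFRA locus is shared with FIP1L1. Endothelial markers summed to 10.9 to 17.3 CPM in normal and 3.34 to 4.70 CPM in high glucose (1 called lower, KDR, of 4 tested), while CDH5 was at or near 0. Most of that sum was KDR, at 12.2 ± 3.96 CPM in normal and 2.30 ± 0.476 CPM in high glucose. TEK, near 0, was the only tested one to go up, by 2.75, and was not called. Without normal glucose library 1 the endothelial list had 1 called higher and 1 lower. Of 4 immune markers, CD14 and CD68 (at a locus shared with EIF4A1) were tested and not called in edgeR, CD14 with an unadjusted p of 0.0447, while PTPRC was near 0 and CD3E was at 0. The CD68 locus was called higher when normal glucose library 3 was left out (log2 change 0.42, edgeR adjusted p = 0.041). Of 5 photoreceptor and glial markers only GFAP was tested and not called in edgeR (unadjusted p = 0.0142), but called lower without normal glucose library 3 (log2 change -2.77, edgeR adjusted p = 0.03), with CRX and AQP4 at 0. The part of these markers in the members' changes was not tested.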

How the data were processed

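RNA was measured in 6 ARPE-19 libraries (3 normal and 3 high glucose, 72 h). Per the labels, RNA was extracted with Trizol, selected on poly-T beads and sequenced in pairs on a NovaSeq. Their protocol also speaks of adipose RNA and of fractions with or without poly(A), so which RNA fraction was sequenced is not certain. Bowtie 0.12.2 and mm8, a mouse build, stand in the submitters' processing notes, while the identifiers and coordinates in the table are human. The counting tool and its strand setting are not given in the sources used here. The deposited table gives whole-number counts and FPKM per locus, per the file headers. The value 4 occurs 9555 times in the counts, more than 3 (4210 times) or 5 (2659 times), so a fragment may stand for about 4 counts, and 12 counts (0.135 to 0.146 CPM) were taken as the floor. None of 37 mitochondrial loci had a count.

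From the counts, edgeR 4.0.16 in R 4.3.3 was run with TMM scaling (trimmed mean of M values), filterByExpr, glmQLFit and glmQLFTest (2-sided) on all 6 libraries with condition as the only term, and p-values were adjusted over 25025 loci. SE is the log2 change divided by the square root of F. The 19 alternatives used edgeR, limma 3.58.1 and DESeq2 1.42.0. CPM values carry a mean ± SD of 3 libraries, which measures only the spread between these libraries.

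The members and the lists were chosen with earlier results of these data known. Named genes are the members, up to 4 called genes higher and 4 lower with the largest change in each list, the 5 loci most like CA9 among those with a mean CPM of at least 1 (prior count 2), and the nearest such loci to each member on each side. NDRG2 to NDRG4, ARNT, BCL2L13, PHB2, PKM and the marker genes were named outside that rule, after their values were seen. One gene that the rule names is not reported here. RefSeq promoter sequences were searched on both strands.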

Additional observations from a re-analysis of the deposited data

How the results depend on the processing

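CA9, CA12, EPAS1 and NDRG1 kept their call under all 19 alternatives, with log2 changes of 3.38 to 3.80, 1.07 to 2.32, -1.09 to -0.94 and -1.72 to -1.16, and EGLN1 and EGLN3 were called under none. Among all loci, 4906 calls became 2545 with a replicate block (1312 higher and 1233 lower), 7050 with DESeq2, and 1421 to 7615 with a library left out (730 to 3932 higher, 691 to 3683 lower, most of each without normal glucose library 3). Replicate numbers are not said to pair libraries. Deviations from the group means correlated at -0.017, -0.001 and -0.009 between same-numbered libraries, which does not settle whether they were paired. Members called higher were 2 with the replicate block and 2 to 5 with a library left out. In the fixed lists, lower calls were 9 with the block, and with a library left out calls were 9 to 37 higher and 4 to 28 lower.

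HIF1A changed sign, at -0.0027 in the edgeR fit, to 0.01 with upper quartile scaling, 0.04 with no scaling, 0.03 with the replicate block, 0.03 with voom, 0.07 with log2 FPKM after adding 1 or 0.1, and between -0.12 and 0.23 with a library left out. BNIP3 lost its call with the block (0.62) and, over omissions, ranged from 0.54 to 0.72. BNIP3L lost it with no filter (0.36) and with the block (0.36), and ranged from 0.33 to 0.41 over omissions. ANKRD37 gained a call with DESeq2 (-0.50), and ranged from -0.60 to -0.39 over omissions. The cause of these shifts was not tested, and each omission leaves a group of 2 libraries. With ACGTG alone, 4 members had a promoter match, not 7. Summing a member's annotated loci was not run, since each had 1. Under the alternatives the median log2 change of all loci lay between -0.0157 and 0.0407. No depth limit touched a member: EGLN3, the lowest, held at least 85 counts in a library.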
